A study of Mus musculus with 12 samples.

Results

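The interferon regulatory factors (IRFs) are a family of transcription factors, and 8 of their genes were followed here in mouse Th1 cells, a helper T cell type defined by its production of interferon-gamma: Irf1, Irf2, Irf3, Irf4, Irf5, Irf7, Irf8 and Irf9. They were taken by gene symbol from a table of counts for 39179 Ensembl gene IDs, and all 8 were found and passed the filter on low counts, among 9914 genes tested. The series compared cells of a wild-type (WT) and an LDHA-KO genotype, both on the C57BL/6 background. LDHA is lactate dehydrogenase A, which turns pyruvate into lactate. How the gene was removed, and in which cells, is not given in the sources used here, nor is the number of animals.

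Both genotypes were treated alike. Naive CD4 T cells were activated on plate-bound anti-CD3 (5 µg/ml) with soluble anti-CD28 (2 µg/ml) and cultured for 3 days with IL-2 (100 U/ml), IL-12 (10 ng/ml) and anti-IL-4 (10 µg/ml). They then received PMA (50 ng/ml) and ionomycin (1 µM), which bypass the T cell receptor, for 4 h in the presence of GolgiStop, which blocks secretion. RNA was sequenced from 2 WT and 2 LDHA-KO libraries; the 8 chromatin samples were not analysed here. The labels do not say whether the 2 libraries of a genotype came from different mice or cultures. The p-values reflect only how far these libraries vary, possibly for technical reasons. Between the 2 libraries, a chi-square per gene, expected near 1 for counting noise alone, was 1.15 in WT and 1.23 in LDHA-KO. The fitted coefficient of variation beyond counting noise was 4.03%. Whether the libraries are technical replicates was not tested.

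All IRFs share an amino-terminal DNA-binding domain that recognises the core letters GAAA, usually found as a repeat in the interferon-stimulated response element (ISRE). IRF3, IRF5 and IRF7 are activated by kinases downstream of sensors of foreign nucleic acid and drive interferon genes. IRF9 joins STAT2 in the complex that answers type I interferon. IRF1 is induced by interferon-gamma and activates many of its target genes, IRF2 competes with it for the same sites, and IRF4 and IRF8 bind DNA largely with partners and are known in lymphocytes as regulators of effector programmes.

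Library totals ran from 919741 to 1293178 counts, a low depth; levels are given as CPM, counts scaled to the TMM-adjusted library size, and 1 count corresponds to 0.773 to 1.09 CPM before that adjustment. Ldha, the targeted gene, held 1055 and 1006 counts (WT) against 42 and 53 (LDHA-KO). Of 7 T cell markers, all were detected, with summed levels of 1100 CPM in both WT libraries and 991 and 1010 CPM in LDHA-KO. At an edgeR adjusted p under 0.05, 2 of them fell, Cd2 (log2 fold change -0.94) and Thy1 (-0.56), and 1 rose, Cd4 (0.51). Of all tested genes, 31.0% were called in either direction. The defining markers of NK cells were at 0 in every library, and those of B cells and CD8 T cells summed to 1.56 to 13.9 CPM.

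The strand setting used in counting is not given in the sources used here, nor is whether the library kit marked strand, and the counts themselves bear on it. For mt-Nd6, which lies on the opposite strand to most mitochondrial genes, counts were 3.72 and 4.09 times those of mt-Cytb in WT and 6.21 and 6.20 times in LDHA-KO. This ratio thus differed between the genotypes. All 4 mitochondrial genes read were called higher in LDHA-KO (edgeR adjusted p at most 1.59e-06), where 15.6% of all tested genes were. On the log2 scale mt-Nd6 rose by 1.34, mt-Nd1 by 1.04, mt-Co1 by 0.92 and mt-Cytb by 0.68. Why they rose was not tested. Gapdh held 13 to 26 counts per library. Genes opposite abundant ones held many counts: over the 4 libraries Phykpl held 48349 against 7404 for Hnrnpab on the other strand, and Snx22 held 10654 against 517 for Ppib, pairs chosen after their values were seen. Among the 7163 tested genes with a known strand, 48 of the 100 with the most counts overlap a RefSeq gene on the opposite strand, against 34.5% of all of them. Of the 20 with the most counts, 10 do. Eef2 (26384 counts over the 4 libraries), Eef1a1 (17248) and Vim (7305), also picked after their values were seen, are among those of the 20 that do not. The counts may be largely of reads antisense to each gene, but this was not tested. If so, a level or change given here, also above for the cell type markers, is that of antisense reads in the deposited count. It need not be that of the mRNA, and a count at or near 0 would not show that the mRNA was absent. Reads from an overlapping gene on the other strand would also enter the count. The fall in Ldha shows that its count followed the genotype, though Ldha overlaps the RefSeq gene model Gm39011 on the opposite strand. For the IRF genes the part of strand was not tested.

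Sequence before the start sites of the family shows which members carry the letters of interferon-responsive elements. The windows, from RefSeq on GRCm38.p6, run from 250 bases before to 50 bases after an annotated start, and all 8 genes had at least 1 (11 windows). The ISRE core was searched as GAAANNGAAA and its reverse TTTCNNTTTC, and the gamma-activated site (GAS), an element through which interferon-gamma acts, as TTCNNNGAA, which reads the same on both strands. GAS letters were present before Irf1, Irf2 and Irf8, and the ISRE core before Irf2. Stretches of 100 bases holding them are printed 5′ to 3′ on the gene's strand, with the matched letters of the GAS (Irf1, Irf8) or the ISRE core (Irf2) in capitals. They cover chr11:53769874-53769973 (plus strand) for Irf1, chr8:120736148-120736247 (plus) for Irf8 and chr8:46739495-46739594 (plus) for Irf2.
Irf1: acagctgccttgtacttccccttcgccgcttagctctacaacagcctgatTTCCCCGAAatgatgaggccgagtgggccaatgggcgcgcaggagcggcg
Irf8: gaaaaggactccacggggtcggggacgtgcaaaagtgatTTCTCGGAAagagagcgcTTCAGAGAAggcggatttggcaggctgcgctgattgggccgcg
Irf2: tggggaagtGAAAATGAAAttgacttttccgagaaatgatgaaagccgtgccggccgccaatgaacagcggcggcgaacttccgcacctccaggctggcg
Of all 32851 windows in the table, 3.44% held the ISRE core and 8.30% the GAS letters. The 3 members with GAS letters did not move together: Irf1 fell, Irf8 rose and Irf2 did not pass the test (below). A match is a description of these letters and not a measured binding site.

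The family changed in both directions between the genotypes. Irf1, Irf7 and Irf9 fell in LDHA-KO cells, Irf8 and Irf5 rose by smaller amounts, and Irf2, Irf3 and Irf4 did not pass the test. Over the 8 members, 2 were higher and 3 lower at an adjusted p under 0.05 by edgeR's quasi-likelihood test, 62.5% of the family. Over all tested genes the share was 31.0%, with 15.6% higher and 15.4% lower. The libraries of the genotypes did not overlap for 5 members, 3 lower and 2 higher, where this held for 64.3% of all tested genes (32.6% lower, 31.8% higher). The median log2 fold change of the 8 was -0.09, against -0.01 over all tested genes. With 8 genes chosen by name, these shares describe the family and are no test of it. DESeq2 called 1 of the 8, Irf8, and 901 genes in all, and without LDHA-KO replicate 2 edgeR called 2 of the 8, Irf1 and Irf9.

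**Figure D1:**
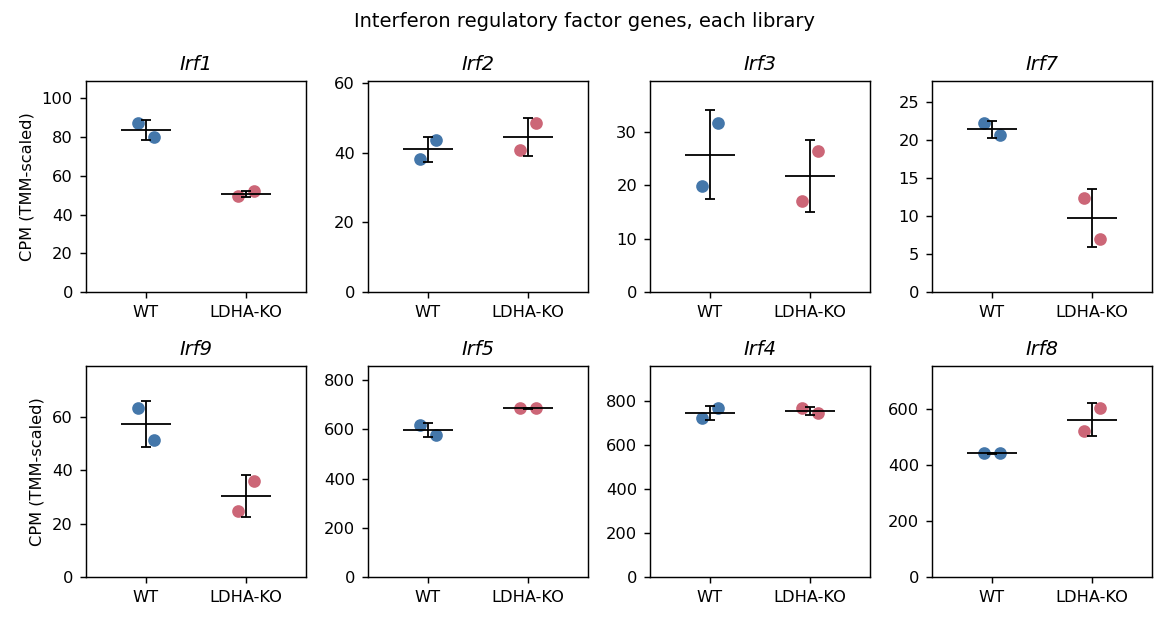
Level of each member in TMM-scaled CPM (vertical axis, from 0, a separate scale per gene) in the 2 WT (blue) and 2 LDHA-KO (red) libraries; points are libraries, long bars the mean and error bars 1 SD. Irf1, Irf7 and Irf9 have both LDHA-KO libraries below both WT libraries, Irf5 and Irf8 have both above, and Irf2, Irf3 and Irf4 overlap.

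Irf7, which amplifies type I interferon production and is itself induced by it (ENSMUSG00000025498; chr7:141263183-141266499), had the largest fall of the family and the fewest counts. It held 29 and 26 counts (WT) against 11 and 8 (LDHA-KO). Both LDHA-KO values lay below both WT values. Irf7 met the filter on low counts in both libraries of WT but not of LDHA-KO. The level went from 21.4 ± 1.15 to 9.74 ± 3.81 CPM (mean ± SD, n = 2 each), a log2 fold change of -1.18 with an SE of 0.36 (edgeR adjusted p = 0.0104). From the summed counts alone, 55 against 19, the ratio of LDHA-KO to WT was 0.440 with an exact 95% counting interval of 0.247 to 0.753. The call was lost without LDHA-KO replicate 2 (-0.77, adjusted p = 0.262), without WT replicate 1 (-1.12, adjusted p = 0.0605) and in DESeq2 (-1.15, adjusted p = 0.338).

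Irf9, the DNA-binding subunit of the complex that answers type I interferon (ENSMUSG00000002325; chr14:55603985-55610030), held 83 and 65 counts (WT) against 22 and 41 (LDHA-KO). Scaled for depth, both LDHA-KO libraries were lower, at 24.9 and 36.1 CPM against 63.5 and 51.4 CPM. The level went from 57.5 ± 8.56 to 30.5 ± 7.94 CPM (mean ± SD, n = 2 each), a log2 fold change of -0.88 with an SE of 0.22 (edgeR adjusted p = 0.00145). With 1 library left out at a time it ranged from -1.20 to -0.66 and stayed called; DESeq2 gave -0.90 (adjusted p = 0.152).

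Irf1, the interferon-gamma-induced activator (ENSMUSG00000018899; chr11:53770014-53778374), held 114 and 101 counts (WT) against 44 and 59 (LDHA-KO). The groups were well apart, at 87.2 and 79.9 CPM against 49.7 and 52.0 CPM. The log2 fold change was -0.71 with an SE of 0.17 (edgeR adjusted p = 0.00122), from -0.78 to -0.65 with single libraries left out, called each time, and -0.71 in DESeq2 (adjusted p = 0.145). Irf2, the competitor of IRF1 (ENSMUSG00000031627; chr8:46739745-46847458), held 50 and 55 counts (WT) against 36 and 55 (LDHA-KO), and its CPM values overlapped between the genotypes. Its log2 fold change was 0.14, with a 95% interval of -0.28 to 0.56 (edgeR adjusted p = 0.651). The ratio of Irf1 to Irf2 counts within a library, which no scaling between libraries can alter, was 2.28 and 1.84 in WT and 1.22 and 1.07 in LDHA-KO. This ratio was chosen after the values were seen and is given with no test. Irf2 overlaps the RefSeq gene models Gm31172 and Gm39170.

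Irf3, the constitutively made factor that is activated by phosphorylation rather than by new transcription (ENSMUSG00000003184; chr7:44997648-45002848), held 26 and 40 counts (WT) against 15 and 30 (LDHA-KO). The libraries of the genotypes overlapped. The log2 fold change was -0.20, with a 95% interval of -0.79 to 0.38 (edgeR adjusted p = 0.635), which at this depth leaves room for a change of the size seen in Irf1. Its sign was not stable, since leaving out WT replicate 2 gave 0.16 and leaving out LDHA-KO replicate 1 gave 0.05.

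Irf8, which in Th1 cells and myeloid cells acts with partner factors (ENSMUSG00000041515; chr8:120736358-120756694), was the member with the smallest adjusted p. It held 579 and 559 counts (WT) against 461 and 687 (LDHA-KO); scaled for depth these were 443 and 442 CPM against 521 and 605 CPM. Both LDHA-KO libraries were above both WT libraries, and the WT pair nearly coincided. The log2 fold change was 0.35 with an SE of 0.08 (edgeR adjusted p = 0.000289), 0.36 in DESeq2 (adjusted p = 0.0339) and 0.27 with library totals alone. Without LDHA-KO replicate 2 it was 0.24 and lost its call (adjusted p = 0.0646).

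Irf4, which is induced by T cell receptor signals and needed for effector T cell expansion (ENSMUSG00000021356; chr13:30749233-30766981), held the most counts of the family, 942 and 970 in WT and 677 and 843 in LDHA-KO. In CPM the libraries were interleaved, at 721 and 767 in WT and 765 and 742 in LDHA-KO. The log2 fold change was 0.02, with a 95% interval of -0.11 to 0.15 (edgeR adjusted p = 0.865), the narrowest interval of the 8. With library totals alone it was -0.07 and without WT replicate 1 it was -0.03, neither called. The ratio of Irf8 to Irf4 counts within a library was 0.615 and 0.576 in WT and 0.681 and 0.815 in LDHA-KO, again chosen after the values were seen.

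Irf5, best known as the factor downstream of Toll-like receptors in myeloid and B cells (ENSMUSG00000029771; chr6:29526130-29541869), held 809 and 731 counts (WT) against 608 and 778 (LDHA-KO). The levels were 619 and 578 CPM in WT and 687 and 685 CPM in LDHA-KO, which do not overlap. The log2 fold change was 0.20 with an SE of 0.07 (edgeR adjusted p = 0.0228). The call was lost when WT replicate 2 (0.15) or either LDHA-KO library (0.21 in both cases) was left out, with library totals alone (0.11), with no filter on low counts (0.19) and in DESeq2 (0.20). Irf5 overlaps Tnpo3, a nuclear import receptor gene on the opposite strand, over 1043 bases of their RefSeq spans, so its count is uncertain and, if reads were counted on the other strand, holds reads of Tnpo3; Tnpo3 itself held 95 to 163 counts, with a log2 fold change of -0.22 (edgeR adjusted p = 0.225).

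Markers of myeloid and dendritic cells, which express Irf5 and Irf8, are given beside these rises. Of 9 such markers, 7 had a count in some library, and Lyz2 and Adgre1 were at 0 in all 4. Their summed level was 341 and 330 CPM in WT and 398 and 411 CPM in LDHA-KO. Csf1r accounted for nearly all of this, with 348 to 462 counts per library, and was called higher (log2 fold change 0.29, edgeR adjusted p = 0.00500). Csf1r overlaps the RefSeq gene models Gm52352, over 8247 bases, and Mir6983, over 64 bases. The other 8 markers summed to 16.6 and 8.56 CPM in WT and 10.0 and 10.4 CPM in LDHA-KO. The part of other cells in the levels of Irf5 and Irf8 was not tested. In bulk RNA a change in the number of cells that express a gene and a change in RNA per cell cannot be told apart.

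**Figure D2:**
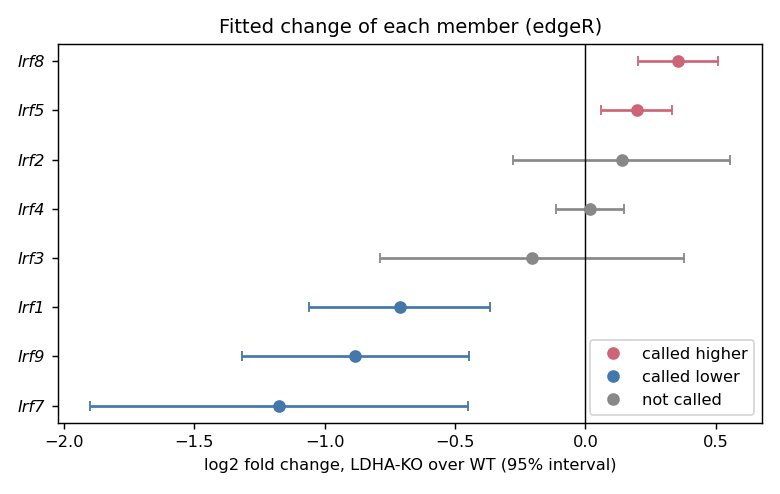
Fitted log2 fold change of LDHA-KO over WT (horizontal axis) for each member, with 95% intervals from edgeR; red points were called higher, blue lower and grey not called. The intervals of Irf4 (-0.11 to 0.15) and Irf5 are the narrowest and that of Irf7 the widest.

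For each of the 5 called members, the other genes with the most similar profile over the 4 libraries are given. Likeness was the distance between centred log2(CPM + 1) values, among genes with at least as many counts as the member. The candidates ran from 185 genes for Irf5 to 7700 for Irf7, so distances were not compared between members. Irf7 was nearest to Smim15, Nfil3 and S100pbp (distances 0.14, 0.15 and 0.16), and Irf9 to Spdya, Uggt1 and Ccnc (0.16, 0.17 and 0.17). Irf1 was nearest to Manf, Cnot6 and Dusp5 (0.03, 0.04 and 0.04). Irf8 was nearest to Ddx21, Eif4b and Capn12 (0.04, 0.08 and 0.08), and Irf5 to H2-D1, Gm26631 and Sla2 (0.03, 0.05 and 0.05). With 4 libraries such distances are a description only.

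Upstream of IRF3, IRF5 and IRF7, most sensors, adaptors and kinases did not pass the test. Of 19 listed genes, 15 were tested, 3 fell and 1 rose (26.7%, against 31.0% of all tested genes), with a median log2 fold change of -0.30; without LDHA-KO replicate 2 the list held 2 calls. The falls were Dhx58 (-2.80, edgeR adjusted p = 3.41e-05), a RIG-I-like helicase gene, with 25 and 21 counts (WT) against 2 and 3 (LDHA-KO), Zbp1 (-1.21, adjusted p = 2.48e-05), a sensor of Z-form nucleic acid, with 78 and 73 against 25 and 26, and Irak4 (-0.43, adjusted p = 0.00300), a kinase gene of Toll-like receptor signalling. Dhx58 and Zbp1 are themselves interferon-induced genes. Dhx58 passed the filter on low counts through the WT libraries alone, so a rise could not have been called in it. Irak4 lost its call without LDHA-KO replicate 2 (-0.33). Traf6, a ubiquitin ligase gene, had the rise (0.40, adjusted p = 0.0401), which was lost without WT replicate 2 (0.21) or either LDHA-KO library (0.43 and 0.37). Tbk1, the kinase gene of IRF3 and IRF7, had 30 and 42 counts (WT) against 14 and 28 (LDHA-KO) (log2 fold change -0.43, adjusted p = 0.264). The adaptor gene Sting1 had 94.0 ± 5.51 and 98.9 ± 0.807 CPM (mean ± SD, n = 2 each; 0.07, adjusted p = 0.738).

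Counts of the type I interferon genes, which IRF3 and IRF7 drive, were near the limit of detection. Ifnb1 held 6 and 1 counts (WT) against 0 and 0 (LDHA-KO), where a count of 0 allows up to 3.26 and 2.52 CPM in the respective libraries, and was too low to test. Of the 10 interferon genes listed, 7 had too few counts to test and 2 had none. Ifnl2, too low to test and named after its values were seen, held 1 and 0 counts (WT) against 1 and 8 (LDHA-KO). The single tested gene was Ifng, whose product induces Irf1, with 2072 and 1998 counts (WT) against 338 and 439 (LDHA-KO) (log2 fold change -2.04, edgeR adjusted p = 2.46e-27).

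Among interferon receptors, their kinases, STATs and brakes, Stat2, whose product partners IRF9, fell. It went from 67.3 ± 4.32 to 30.7 ± 6.10 CPM (mean ± SD, n = 2 each; log2 fold change -1.15, edgeR adjusted p = 2.40e-05). Of 12 genes listed, 11 were tested, 2 rose and 1 fell (27.3% called, against 31.0% of all tested genes), with a median of -0.07. The rises were Jak2, a kinase gene of the interferon-gamma receptor (0.56, adjusted p = 2.64e-07), and Socs3, a feedback inhibitor gene (0.47, adjusted p = 0.0254), not called without WT replicate 2 (0.27) or LDHA-KO replicate 2 (0.42). Usp18, an interferon-induced brake on the type I receptor, had 23 and 24 counts (WT) against 11 and 13 (LDHA-KO) (-0.62, adjusted p = 0.178). Stat2 overlaps Apof.

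Of the type I interferon response genes, whose ISREs are bound by IRF9 and IRF7, 10 of 15 tested fell in LDHA-KO cells and 0 rose. The share called was 66.7%, against 31.0% of all tested genes, with a median log2 fold change of -1.04; DESeq2 called 5. The other 13 of the 28 listed had too few counts. Mx2 and Xaf1 passed the filter on low counts through the WT libraries alone. Each could therefore enter the share as a fall or uncalled, but not as a rise. The 4 largest falls were in Mx2, Oas3, Xaf1 and Trim30a, all antiviral or interferon-induced genes. Oas3 held 86 and 103 counts (WT) against 8 and 11 (LDHA-KO) (-2.95, edgeR adjusted p = 6.13e-12), and Trim30a held 70 and 77 against 10 and 14 (-2.26, adjusted p = 4.09e-09). Mx2 held 20 and 13 counts against 1 and 1, a ratio of LDHA-KO to WT of 0.0772 with a 95% counting interval of 0.00898 to 0.302. Xaf1 held 13 and 13 counts against 2 and 2 (-2.29, adjusted p = 0.00441) and lost its call when any 1 library was left out. The 5 tested genes that were not called, named after their values were seen, were Isg15 (-0.41, adjusted p = 0.0629), Ifit1 (-0.33, adjusted p = 0.401), Bst2 (-0.02, adjusted p = 0.931), Parp9 (0.01, adjusted p = 0.956) and Dtx3l (0.09, adjusted p = 0.655). Parp9 and Dtx3l overlap each other. Earlier results on these libraries had already shown this fall, so it is not independent of them.

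Genes of the IRF1 and interferon-gamma response changed in both directions. Of 24 listed genes, 23 had an ID and 18 were tested, of which 5 rose and 4 fell (50.0% called, against 31.0% of all tested genes), with a median of 0.01. Gbp2, a guanylate-binding protein gene, rose from 270 ± 48.1 to 560 ± 13.5 CPM (mean ± SD, n = 2 each; log2 fold change 1.06, edgeR adjusted p = 3.17e-13). The immunity-related GTPase genes Igtp and Irgm1, of a related family, fell by 1.07 and 1.37 on the log2 scale (adjusted p = 2.74e-05 and 0.000435), Irgm1 losing its call without LDHA-KO replicate 2 (-0.86). Cxcl10, a chemokine gene, had 19 and 10 counts (WT) against 12 and 34 (LDHA-KO) (1.00, adjusted p = 0.0300); these libraries overlap, and the call was lost without WT replicate 2 (0.64) or LDHA-KO replicate 2 (0.27). The remaining 5 calls were named after their values were seen. Nlrc5, which encodes an activator of MHC class I genes, fell by 1.00 (adjusted p = 6.54e-05) and was called with each library left out. Cd274, the gene of PD-L1, rose by 0.64 (adjusted p = 0.00417), a call lost without LDHA-KO replicate 2 (0.52). H2-D1 and H2-K1, related class I genes between which some reads may be split, had 0.21 and 0.16 (adjusted p = 0.00362 and 0.0476). H2-D1 lost its call without WT replicate 2 (0.15), H2-K1 without WT replicate 2 or LDHA-KO replicate 2 (0.09 in both cases), and both with library totals alone (0.13 and 0.07). Il12rb1, a receptor gene for IL-12, had -0.31 (adjusted p = 0.0383), lost without WT replicate 2 (-0.26) or LDHA-KO replicate 2 (-0.14). The other antigen-processing genes, Psmb8, Psmb9, Psmb10, Tap1, Tap2, Tapbp and B2m, were not called and lay between -0.44 (Psmb10) and 0.07 (Tapbp). With 1 library left out at a time the list held 4 to 9 calls, the lowest without LDHA-KO replicate 2 and 5 without WT replicate 2. Gbp2 overlaps Mir6381 and Cxcl10 overlaps Art3.

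**Figure D3:**
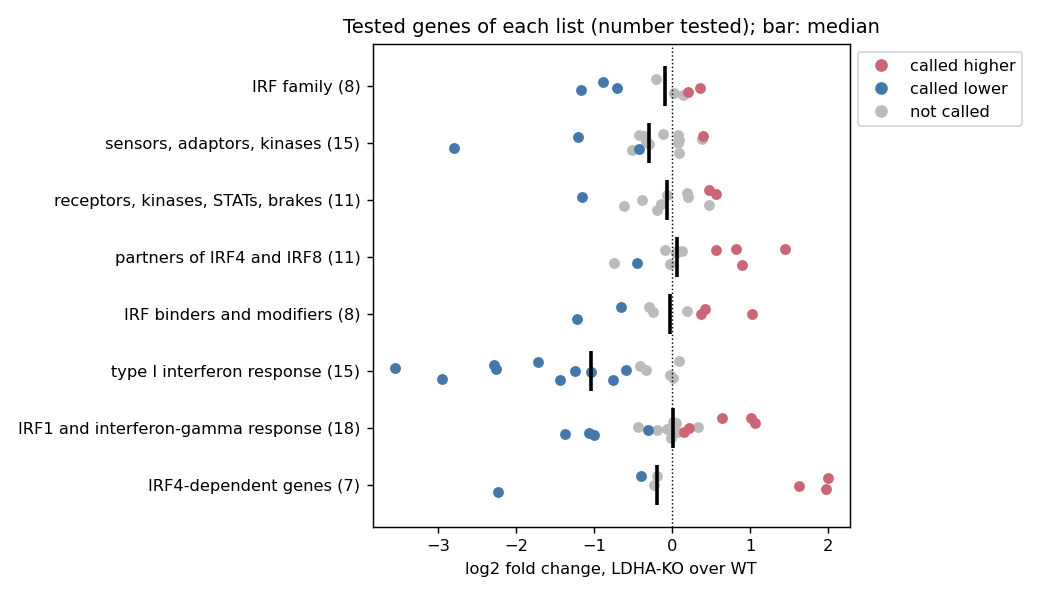
Log2 fold change of LDHA-KO over WT (horizontal axis) for every tested gene of 8 lists, the number tested in brackets; the interferon genes, of which 1 was tested, are not plotted; each point is a gene, red called higher, blue called lower, grey not called, and black bars are medians. The type I interferon response has its median at -1.04 and no gene called higher, while the other lists plotted have medians between -0.30 and 0.06.

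Genes that rose and genes that fell can carry the same ISRE letters. The stretches of 40 bases below are before the starts of Gbp2 (risen), Igtp, Oas3 and Stat2 (fallen) and Isg15, a classic interferon-induced gene (log2 fold change -0.41, edgeR adjusted p = 0.0629, named for its sequence), with ISRE cores in capitals; where cores overlap, the run of capitals is longer. They cover chr3:142620593-142620632 (plus strand), chr11:58199506-58199545 (plus), chr5:120777710-120777749 (minus), chr10:128270258-128270297 (plus) and chr4:156200869-156200908 (minus) of GRCm38.p6.
Gbp2: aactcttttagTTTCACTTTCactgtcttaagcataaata
Igtp: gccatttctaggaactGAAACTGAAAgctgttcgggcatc
Oas3: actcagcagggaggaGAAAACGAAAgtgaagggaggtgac
Stat2: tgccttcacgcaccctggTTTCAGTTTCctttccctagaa
Isg15: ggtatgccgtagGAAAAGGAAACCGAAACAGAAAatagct
In Isg15, 3 cores overlap. The ISRE core was present for 10 of 21 listed type I interferon response genes with a window, whether tested or not. Of these, Oas3, Trim30a and Eif2ak2 fell, and Isg15, Ifit1 and Bst2 were not called. The others, Ifit3, Oas1a, Rsad2 and Ddx60, had too few counts to test. In the IRF1 list the core was present for 8 of 18 genes, which include Gbp5, with no ID, and Cybb, with too few counts. Among the 7163 tested genes with a window it was present for 3.71%. Over those tested genes it was found in 4.08% of 1079 called lower, 3.58% of 1006 called higher and 3.66% of 5078 not called. These shares are a description with no test. The other motifs searched, on both strands, were GAAANNNGAAA, the ETS-IRF composite GGAANNGAAA, whose letters can overlap an ISRE core, and the AP-1 site TGANTCA. The composite was found in 3.89% of genes called lower, 2.49% of those called higher and 2.60% of those not called, and the AP-1 site in 8.06%, 5.37% and 5.28%. For GAAANNNGAAA the shares were 2.50%, 2.39% and 2.52%, and for the GAS 9.45%, 6.66% and 7.92%. Over all windows these motifs were present in 2.75% (GAAANNNGAAA), 2.72% (composite) and 7.81% (AP-1).

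Among transcription factors that partner IRF4 and IRF8, 4 genes rose and 1 fell. Of 13 listed, 11 were tested (45.5% called, against 31.0% of all tested genes, and 4 higher where 15.6% of all were higher), with a median of 0.06. Batf, which encodes the AP-1 factor that binds with IRF4 at composite sites in T cells, rose from 46.7 ± 1.12 to 86.2 ± 5.15 CPM (mean ± SD, n = 2 each; log2 fold change 0.89, edgeR adjusted p = 7.10e-05). Jun, a dimer partner of BATF, rose by 1.45 (adjusted p = 1.45e-16), and Stat3 by 0.81 (adjusted p = 1.32e-12). Batf2 had 0.55 (adjusted p = 0.0429), a call lost without either WT library or without LDHA-KO replicate 2 (0.56, 0.54 and 0.40). The single fall was in Nfatc2 (-0.45, adjusted p = 0.0139), the gene of a calcium-activated factor, named because it is the only one; its call was lost without WT replicate 2 (-0.37), without LDHA-KO replicate 1 (-0.34) and in DESeq2 (-0.45, adjusted p = 0.331). The ETS partners of IRF4 and IRF8 known from B and myeloid cells were almost undetected: Spi1 held 1 count in each of 2 libraries and Spib none.

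Proteins that bind or modify IRFs changed in both directions. Of 9 listed genes, 8 were tested, 3 rose and 2 fell (62.5% called, against 31.0% of all tested genes), with a median of -0.03; DESeq2 called 1. Irf2bpl, of the IRF2-binding protein family, fell from 96 and 88 counts to 31 and 31 (log2 fold change -1.22, edgeR adjusted p = 6.79e-06). Its relative Irf2bp2, which encodes a corepressor bound to IRF2, rose by 0.37 (adjusted p = 0.00326), a call lost without WT replicate 2 (0.25) or LDHA-KO replicate 1 (0.28). Of the genes that act on IRF4, Swap70 rose by 1.03 (adjusted p = 0.00336), and Rock2, which encodes a kinase of IRF4, fell by 0.66 (adjusted p = 0.000724) but lost its call without LDHA-KO replicate 2 (-0.50). Fkbp4, an immunophilin gene whose product binds IRF4, rose by 0.42 (adjusted p = 0.00224), not called without WT replicate 1 (0.33).

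Genes that depend on IRF4 in activated T cells changed in both directions while Irf4 itself had a log2 fold change of 0.02. Of 11 listed, 7 were tested, 3 rose and 2 fell (71.4% called, against 31.0% of all tested genes), with a median of -0.19. Il10, the gene of an anti-inflammatory cytokine, held 30 and 19 counts (WT) against 1 and 7 (LDHA-KO) (log2 fold change -2.24, edgeR adjusted p = 0.000323). With single libraries left out it stayed called, from -1.60 without LDHA-KO replicate 1 to -3.94 without LDHA-KO replicate 2, where 1 count remains in LDHA-KO. Bcl6, a repressor gene of follicular helper cells, held 11 and 9 counts against 24 and 25 (1.63, adjusted p = 0.000373), and Gata3, the Th2 regulator gene, 10 and 11 against 26 and 39 (1.96, adjusted p = 6.14e-06). Il10 met the filter on low counts in both libraries only in WT, and Bcl6 and Gata3 only in LDHA-KO. The filter thus favoured a call of these genes in the direction seen, and the share called depends in part on it. The glucose transporter gene Slc2a3 rose by 2.00 (adjusted p = 8.93e-12). Prdm1, which encodes BLIMP-1, held 6 and 8 counts (WT) against 3 and 3 (LDHA-KO) and was too low to test. Slc2a3 overlaps Gm4482, Bcl6 overlaps Gm31527 and Gata3 overlaps a pair of Rik clones.

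**Figure D4:**
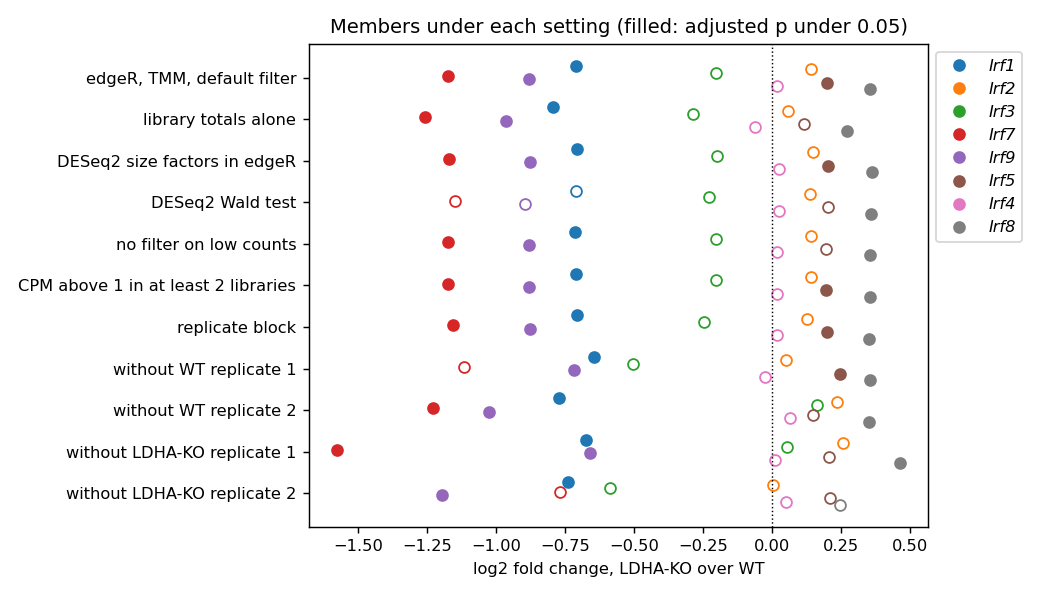
Log2 fold change of each member (horizontal axis) under each setting (vertical axis: scaling, test, filter, replicate block and each library left out); filled points have an adjusted p under 0.05. Irf1, Irf7 and Irf9 lie below 0 and Irf5 and Irf8 above 0 in every setting shown, while Irf3 and Irf4 cross 0, and the DESeq2 line has Irf8 as its single filled point.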

How the data were processed

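RNA from 4 Th1 libraries, 2 WT and 2 LDHA-KO, was compared; the 8 chromatin and input samples were not used here. The authors deposited counts of reads per gene as a single table, not normalised, by Ensembl ID; its columns name genotype and number and were taken as the RNA libraries. Per the submitters' processing notes STAR 2.3.0e, HTSeq 0.6.0, Trimmomatic 0.33, Bowtie2 2.2.6 and FastQC 0.11.2 were used on build mm10 (GRCm38), with no role stated. The sources used here do not give the annotation, the strand setting or the treatment of multiply mapped reads.

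Of 43374 rows, 39179 distinct IDs were kept, and 37607 had a symbol. edgeR 4.0.16 (R 4.3.3) was run with TMM scaling, the default filter (minimum count 10, minimum total 15), genotype as the factor and the quasi-likelihood F-test, adjusted by Benjamini-Hochberg over 9914 genes, called at an adjusted p under 0.05. The filter needs as many libraries as a genotype has, so a gene could pass it through 1 genotype alone. The script was tested on simulated counts. SEs came from the F statistic, and intervals are 95%. Counting intervals (exact binomial, scipy 1.17.1) and the limit of 3 counts for a count of 0 cover counting error only. CPM values are not per length and were not compared between genes. RefSeq positions are on GRCm38.p6, matched by symbol; Sting1 and Rigi were matched as Tmem173 and Ddx58, and 1 listed gene had no ID.

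The members and lists were chosen with earlier results of these data known. The text names all members, up to 4 called genes per other list with the largest absolute log2 fold change, and a fixed set (Tbk1, Sting1, Stat2, Batf, Irf2bp2, Ifnb1, Ifng, Prdm1, Gbp2, Usp18); exceptions, chosen after values were seen, are marked, and 1 gene of this set is not reported here. Alternatives were library totals, DESeq2's size factors, DESeq2 1.42.0, no filter, CPM above 1 in at least 2 libraries, a replicate block and leaving out each library.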

Additional observations from a re-analysis of the deposited data

How the results depend on the processing

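Of 80 alternative log2 fold changes of the 8 members, 64 kept their direction and their side of the threshold, and of 100 alternative counts of called genes 86 stayed within 1.5 times the reported count, which does not say that the same genes were called. DESeq2 called fewer genes than edgeR: 901 in all against 3076, 1 of the IRF family, 1 upstream gene, 1 IRF binder or modifier, 3 partners, 5 type I interferon response genes, 4 of the IRF1 list and 3 of the IRF4 list. In DESeq2 Irf1 (-0.71), Irf5 (0.20), Irf7 (-1.15) and Irf9 (-0.90) lost their calls. Without LDHA-KO replicate 2, 1973 genes were called. With single libraries left out, counts ranged from 1973 to 2412 for all genes, 2 to 4 for the IRF family, 2 to 4 for upstream genes and 4 to 9 for the IRF1 list. Over the same settings Irf5 ranged from 0.15 to 0.25, Irf7 from -1.58 to -0.77, Irf8 from 0.24 to 0.46, Irf3 from -0.59 to 0.16 and Irf4 from -0.027 to 0.062; Irf3 was above 0 without WT replicate 2 (0.16) or LDHA-KO replicate 1 (0.05), and Irf4 below 0 without WT replicate 1 (-0.027). With library totals alone, Irf5 lost its call (0.11), Irf4 (-0.065) and Sting1 (-0.010) changed sign, and the 3056 calls were 1170 higher and 1886 lower, against 1549 and 1527 with TMM; the median of all genes stood at -0.09. With no filter on low counts Irf5 lost its call (0.19) and 2 interferon genes were called, 1 higher and 1 lower. The cause of these changes was not tested. With the replicate block edgeR called 2803 genes, and the 5 called members kept their calls; Traf6 (0.41), Batf2 (0.54), Cxcl10 (0.98), H2-K1 (0.16) and Il12rb1 (-0.31) lost theirs. Deviations of equally numbered libraries had a correlation of -0.03 across genes, and no label ties equal numbers to one animal or day; the numbers were therefore not treated as pairs. Depth limits Irf3 and Irf7 most, with 15 to 40 and 8 to 29 counts per library.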

Other observations

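The tested genes within 10000 bases of Irf7 and Irf9 did not pass the test: Phrf1, which lies 431 bases from Irf7 on the opposite strand, had a log2 fold change of -0.05 (edgeR adjusted p = 0.810), and Rnf31, which lies 310 bases from Irf9 on the same strand and encodes a subunit of the linear ubiquitin ligase, had -0.02 (adjusted p = 0.939). Beside Irf3, Bcl2l12 had 0.16 (adjusted p = 0.573) and Scaf1 had -0.10 (adjusted p = 0.568). Within that distance of Irf1 the 2 other RefSeq genes held 0 to 2 counts per library.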
